A study of Mus musculus with 83 samples.

Results

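The let-7, miR-10, miR-99/100, miR-125 and miR-30 families were examined in the small RNA of mouse sperm. The members are the microRNA rows of the sperm small RNA table whose symbol begins with Mirlet7, or is Mir98, Mir10, Mir99, Mir100, Mir125 or Mir30 with no further digit in the number. This gave 30 members of 1123 microRNA rows, in a table of 2052 small RNA features. They comprise 15 rows of let-7 (with Mir98, whose microRNA has the let-7 seed), 2 of miR-10, 3 of miR-99/100, 3 of miR-125 and 7 of miR-30. No measured value entered this choice of rows.

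The study asked how a father's heat exposure affects the small RNA carried by sperm and the transcripts of the embryos that such sperm sire. Male mice aged 8 to 12 weeks, with no strain or genotype given in the labels, spent 7 days in an intensive care unit for animals that cycled between 35 °C (8 h) and 25 °C (16 h), or lived in the same unit at a steady 21 °C (sham control). They were killed on the morning of day 8. Small RNA of 18 to 40 nt was cut from a gel and sequenced from cauda sperm, with 3 heat and 3 control libraries that the design text calls biological replicates. The sources used here do not give how many males made up a library. PolyA RNA was sequenced from single embryos, with 18 heat and 16 control embryos at the 4-cell stage and 21 heat and 22 control morulae.

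A microRNA is cut from a hairpin precursor and guides Argonaute proteins to messenger RNAs, mainly through its seed, bases 2 to 8 from the 5′ end. The let-7 family is known for its rise during differentiation and for repressing growth and stem cell genes, and its maturation is blocked by LIN28 proteins. The miR-10 genes lie within the Hox clusters, miR-99/100 and miR-125 are made from clusters shared with let-7, and miR-30 is a broadly expressed family whose targets include differentiation and autophagy genes. Sperm carry little cytoplasm, and part of their microRNA is known to be gained from vesicles of the epididymal epithelium.

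The mature sequences on which the results turn are shown from RefSeq (GRCm38.p6), 5′ to 3′, with the seed in capitals. They are shown because several members differ from each other only outside the seed.
let-7a-5p: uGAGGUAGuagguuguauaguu
let-7f-5p: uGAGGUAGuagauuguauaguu
let-7c-5p: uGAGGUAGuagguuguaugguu
miR-98-5p: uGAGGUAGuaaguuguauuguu
miR-10a-5p: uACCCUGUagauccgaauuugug
miR-10b-5p: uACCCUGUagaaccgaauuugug
miR-99a-5p: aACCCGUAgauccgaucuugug
miR-100-5p: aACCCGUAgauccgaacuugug
miR-125b-5p: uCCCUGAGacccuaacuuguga
miR-30a-5p: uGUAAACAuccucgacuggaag
miR-30c-5p: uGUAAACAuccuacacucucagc
miR-30e-5p: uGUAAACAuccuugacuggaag
Of the 30 members, 24 had a mature sequence of this kind in the RefSeq table, giving 20 distinct sequences. The 9 let-7 and miR-98 sequences share the seed GAGGUAG. The pair miR-10a and miR-10b share ACCCUGU, and miR-99a, miR-99b and miR-100 share ACCCGUA. Both miR-125 forms have CCCUGAG, and miR-30a, miR-30c and miR-30e have GUAAACA. Mirlet7j, Mirlet7k, Mirlet7bhg, Mir30b and Mir30d are named only. With positions counted from 1 at the 5′ end, let-7c differs from let-7a by A19G, let-7f by G12A and miR-98 by G11A and A19U. By the same count miR-10b differs from miR-10a by U12A, miR-99a from miR-100 by A16U and miR-30e from miR-30a by C13U.

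The sperm libraries held between 6429221 and 9936108 counts, of which microRNAs took 11.3% to 15.1% in heat and 10.6% to 20.0% in control sperm. Heat replicate 3 stood apart, with 49.8% rRNA against 24.6% to 29.2% in the other libraries, and its TMM scaling factor was 0.675, while that of heat replicate 1 was 1.56. Control factors ranged between 0.727 and 1.34. Because these factors move every microRNA of a library together, levels in a library are given as microRNA CPM, the counts of a row in 1000000 microRNA counts of that library, with no scaling factor. Fold changes are edgeR's, from 1 fit over all 1407 tested features with TMM scaling, and all 30 members passed its low-count filter. MicroRNAs known from late male germ cells (Mir34b, Mir34c and the Mir449 genes) were detected in every library. Their sum was 5798 to 9518 TMM-scaled CPM in heat and 6529 to 8543 in control sperm, mostly Mir34c. Mir449b and Mir449c had at most 4.17. TMM-scaled CPM is taken over all small RNA counts, so it is not comparable with microRNA CPM.

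No member of the 5 families passed the test between heat and control sperm, and the smallest adjusted p among members was 0.476 (Mir100). edgeR's quasi-likelihood test called 0 of the 30 members at a Benjamini-Hochberg adjusted p under 0.05, against 0% of all features, and DESeq2 and limma-voom also called 0 members. At an unadjusted p under 0.05 it had 0 of 30 members, against 1.56% of all features lower and 7.53% higher in heat sperm. The p-values rest on the spread between libraries, 3 a group, after TMM scaling, and edgeR shares that spread across features. They do not measure the spread of a single row alone. The intervals are wide: for Mir10a, the most abundant member, the 95% interval of the fold change ran between 0.504 and 1.97. In bulk sperm, fewer cells that carry a microRNA and less of it per cell cannot be told apart.

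Of the 30 members, 25 had a negative log2 fold change (median -0.22), against 48.2% of all features (median 0.03) and 71.3% of the 536 other tested microRNAs (median -0.28). Among the 30 most abundant other microRNAs 21 were negative, with a median of -0.08. The direction of the members as a list depended on which rows were fitted: with microRNA rows alone, which also changes the filter, the scaling factors and the shared spread, 13 of 30 were negative and the median was 0.10. With all small RNA types fitted and the same low-count filter, RLE size factors and library totals alone each gave 26 negative members. With no low-count filter 19 of 30 were negative, with a median of -0.16. The count also depended on single libraries: 16 were negative without heat replicate 1 and 30 without heat replicate 3. In the fit without heat replicate 3, 6 of 30 members were at an unadjusted p under 0.05 (edgeR), against 256 of 1551 features. On the TMM-scaled CPM scale 0 of 30 members had heat libraries all below or all above the control libraries, against 3.55% of all features lower and 11.2% higher without overlap. As a share of microRNA counts, 4 of 30 members (Mir99a, Mir125b-1, Mir125b-2 and Mir30b) had every heat library below every control library, against 5.41% of the other tested microRNAs. The let-7f rows (2 of 30) had every heat library above every control library, against 2.24% of the others. An exact two-sided permutation test of 3 against 3 libraries cannot give a p below 0.1. Rows without overlap reach that limit by definition, so it adds nothing for these 6 members. The let-7f rows give the same mature sequence, as do the Mir125b rows, and are not separate observations.

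**Figure D1:**
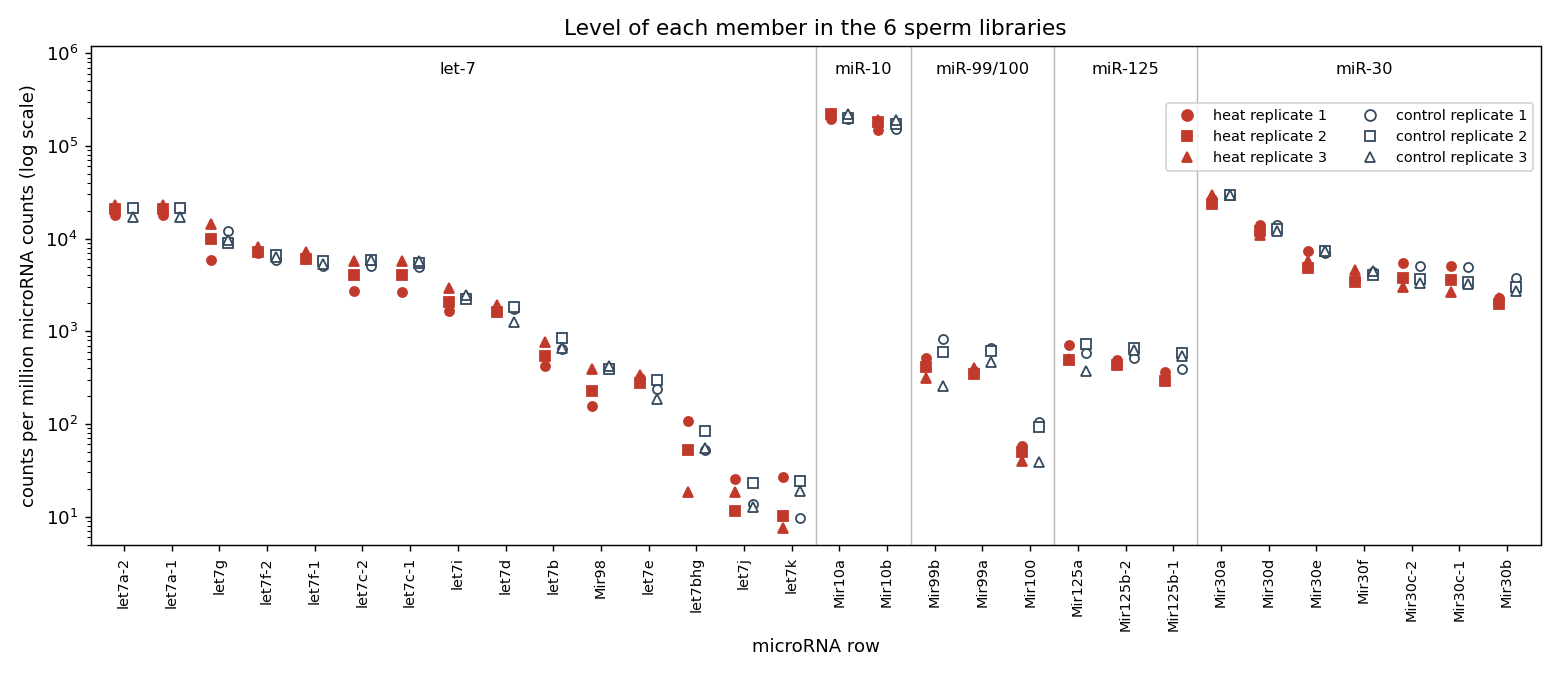
Level of the 30 members in microRNA CPM (log axis) in the 3 heat (filled) and 3 control (open) sperm libraries, by family. Mir10a and Mir10b stand above all other members in every library, let7j and let7k stay under 28, and the heat and control points of most members overlap.

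The miR-10 family held the largest share. Mir10a (chr11:96317165-96317274, plus strand, GRCm38.p6, within the Hoxb3 gene span) was the most abundant microRNA row of the table. It had 194671, 222407 and 222349 microRNA CPM in heat sperm, against 195165, 198683 and 221218 microRNA CPM in control sperm. Mir10b (chr2:74726070-74726137, plus strand, within the spans of Hoxd3 and Hoxd4) ranked next, with 149598, 179765 and 188712 microRNA CPM in heat sperm, against 152254, 174197 and 192593 microRNA CPM in control sperm. The groups overlapped for both, and heat replicate 1 and control replicate 1 were the lowest libraries of their groups. The log2 fold change was -0.0066 (SE 0.48, 95% interval -0.99 to 0.98, adjusted p = 0.997) for Mir10a and -0.047 (SE 0.48, 95% interval -1.04 to 0.94, adjusted p = 0.992) for Mir10b. Together the pair took 34.4, 40.2 and 41.1% of microRNA counts in heat sperm, against 34.7, 37.3 and 41.4% in control sperm. The ratio of Mir10a to Mir10b, which differ by a single base, was 1.30, 1.24 and 1.18 in heat sperm, against 1.28, 1.14 and 1.15 in control sperm, with overlapping groups.

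The let-7 family, whose microRNAs are known to restrain proliferation and stem cell genes, took 6.48, 7.75 and 9.38% of microRNA counts in heat sperm, against 8.10, 8.17 and 7.20% in control sperm. Heat libraries lay on both sides of the control libraries, and the group means were 7.87 ± 1.45% in heat and 7.82 ± 0.540% in control sperm (SD, n = 3 each). The most abundant rows were Mirlet7a-2 (chr9:41536716-41536811, plus strand, within the lncRNA Mir100hg) and Mirlet7a-1 (chr13:48538179-48538272, minus strand). Mirlet7a-2 had 18105, 20751 and 23187 microRNA CPM in heat sperm, against 21230.1, 21604 and 17049 microRNA CPM in control sperm. Mirlet7a-1, with the same mature sequence, had 17984, 20798 and 23101 microRNA CPM in heat sperm, against 21099, 21528 and 16982 microRNA CPM in control sperm. The groups overlapped for both, and Mirlet7a-2 had a log2 fold change of -0.011 (SE 0.47, 95% interval -0.98 to 0.96, adjusted p = 0.997). Mirlet7g, in the Wdr82 span on chromosome 9, had 5945, 9834 and 14442 microRNA CPM in heat sperm, against 12225, 8969 and 9731 microRNA CPM in control sperm. Heat sperm thus held both the lowest and the highest library for Mirlet7g, and its log2 fold change was -0.0031 (95% interval -1.03 to 1.02).

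Within let-7 the groups did not overlap in microRNA CPM for the let-7f rows and did overlap for the let-7c rows. Mirlet7f-2 (chrX:151912346-151912428, plus strand, in the Huwe1 span) had 6981, 7133 and 8018 microRNA CPM in heat sperm, against 5914, 6702 and 6329 microRNA CPM in control sperm. Mirlet7f-1 (chr13:48537829-48537917, minus strand) had 6034, 6096 and 7162 microRNA CPM in heat sperm, against 5077, 5803 and 5360.2 microRNA CPM in control sperm. For both, each heat library was above each control library on this scale, and the TMM-scaled log2 fold changes were 0.16 (95% interval -0.77 to 1.09) for Mirlet7f-2 and 0.19 (95% interval -0.74 to 1.12) for Mirlet7f-1. Mirlet7c-2 (chr15:85706603-85706697, plus strand) had 2736, 4066 and 5799.8 microRNA CPM in heat sperm, against 5053, 5867 and 5819 microRNA CPM in control sperm. Mirlet7c-1 (chr16:77599657-77599750, plus strand) had 2671, 4004 and 5689 microRNA CPM in heat sperm, against 4965, 5503 and 5674 microRNA CPM in control sperm. Heat replicate 1 was the lowest library for both let-7c rows, heat replicate 3 was within the control range for Mirlet7c-2 and just above it for Mirlet7c-1, and the log2 fold changes were -0.38 (95% interval -1.37 to 0.60) for Mirlet7c-2 and -0.36 (95% interval -1.34 to 0.63) for Mirlet7c-1.

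As a share of the let-7 counts, which cancels any scaling factor, Mirlet7c-2 took 4.22, 5.25 and 6.18% in heat sperm, against 6.24, 7.18 and 8.08% in control sperm. The same share for Mirlet7c-1 was 4.12, 5.17 and 6.07% in heat sperm, against 6.13, 6.74 and 7.88% in control sperm, and for Mir98 it was 0.239, 0.292 and 0.417% in heat sperm, against 0.491, 0.476 and 0.588% in control sperm. In these 3 rows of the 15, each heat library was below each control library, against 4.85% of the other tested microRNAs set over the same let-7 sum. For Mirlet7f-1 the share was 9.32, 7.87 and 7.64% in heat sperm, against 6.27, 7.10 and 7.44% in control sperm, each heat library above each control library, against 0.373% of the others. Mirlet7f-2, which gives the same mature let-7f, had 10.8, 9.21 and 8.55% in heat sperm, against 7.30, 8.20 and 8.79% in control sperm, with overlapping groups. The let-7c rows give the same mature sequence and are not separate observations, and each member is set over a sum that contains it.

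Mir98 (chrX:151913214-151913321, plus strand) lies in the same Huwe1 span as Mirlet7f-2, with both hairpins within 976 bases. Its level was 155, 226 and 391 microRNA CPM in heat sperm, against 398, 388 and 423 microRNA CPM in control sperm. Heat replicate 3 was within the control range and the other heat libraries were below it. The log2 fold change was -0.59 (SE 0.44, 95% interval -1.49 to 0.30, adjusted p = 0.676), with p = 0.185 before adjustment. Without heat replicate 3, the library with 49.8% rRNA, it was -1.42 (edgeR, p = 0.00194, adjusted p = 0.107), and without heat replicate 1 it was -0.20. Relative to its neighbour, the ratio of Mir98 to Mirlet7f-2 was 0.0222, 0.0317 and 0.0488 in heat sperm, against 0.0672, 0.0580 and 0.0669 in control sperm, and each heat library was below each control library. The ratio of Mirlet7c-2 to Mirlet7f-2 was 0.392, 0.570 and 0.723 in heat sperm, against 0.854, 0.875 and 0.919 in control sperm, again without overlap. Both ratios are set over Mirlet7f-2, itself higher in every heat library in microRNA CPM. Set over let-7a, the ratio of Mirlet7c-1 to Mirlet7a-1 was 0.148, 0.193 and 0.246 in heat sperm. In control sperm it was 0.235, 0.256 and 0.334, with overlapping groups. The neighbours Mirlet7b and Mirlet7c-2 had a ratio of 0.154, 0.133 and 0.131 in heat sperm, against 0.128, 0.144 and 0.113 in control sperm, with overlapping groups. Mirlet7f-2 and Mirlet7c-2 each share a mature sequence with a row on another chromosome, so these ratios cannot be ascribed to neighbouring hairpins. In all, 19 ratios between related members were computed, with their pairs chosen while earlier results were known. Heat was below control without overlap in 3 and above it in 0, against 8.3% in either direction for all pairs of tested microRNAs with counts in every library. The ratios are descriptions with no test.

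The other let-7 rows had overlapping groups in microRNA CPM. Mirlet7i and Mirlet7d had log2 fold changes of -0.061 (95% interval -1.01 to 0.89) and 0.011 (95% interval -0.91 to 0.93), and Mirlet7b and Mirlet7e had -0.32 (95% interval -1.21 to 0.57) and 0.26 (95% interval -0.54 to 1.05). Without heat replicate 3 the log2 fold changes of Mirlet7g, Mirlet7c-2, Mirlet7c-1, Mirlet7i and Mirlet7b moved by over 1.5 times as folds, to -0.72, -1.05, -1.02, -0.67 and -0.93, with adjusted p of 0.287 or more (edgeR). Mirlet7bhg, which RefSeq lists as the lncRNA Lncppara, spans the hairpins of Mirlet7c-2 and Mirlet7b, and its row had 107, 52.3 and 18.3 microRNA CPM in heat sperm, against 51.7, 84.7 and 55.4 microRNA CPM in control sperm. Heat sperm held both its extremes, and the log2 fold change was -0.42 (SE 0.44, 95% interval -1.32 to 0.49, adjusted p = 0.836). Mirlet7j and Mirlet7k were the lowest members, with 10 to 27 and 9 to 29 counts in a library. Counting error alone is wide there: the 9 counts of Mirlet7k in heat replicate 3 were 7.50 microRNA CPM, with a 95% Wilson interval of 3.95 to 14.3. For Mir10a the interval's half-width was 0.320% of the value in control replicate 1. These intervals cover counting error only.

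**Figure D2:**
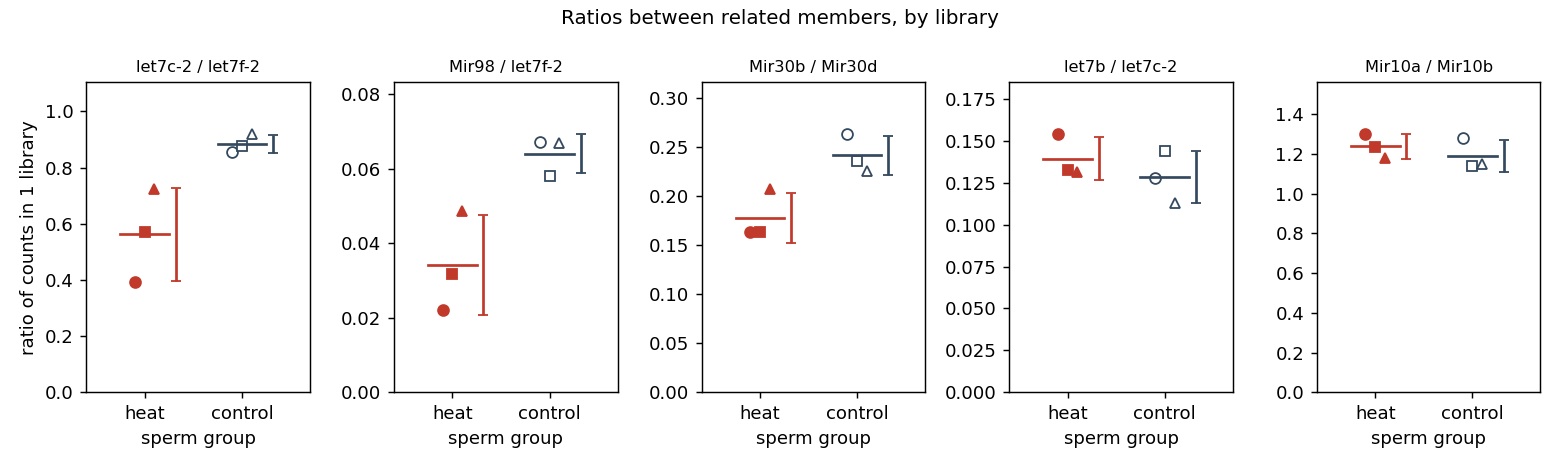
Ratio of counts of 2 related members in each of the 3 heat and 3 control sperm libraries, with the mean (line), the SD (bar beside it) and replicates 1, 2 and 3 as circle, square and triangle. For let7c-2 over let7f-2, Mir98 over let7f-2 and Mir30b over Mir30d every heat library is below every control library, while the groups overlap for let7b over let7c-2 and for Mir10a over Mir10b. The ratios shown were selected from the 19 computed and include all 3 without overlap.

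The miR-99/100 family was scarce, with 0.0950, 0.0812 and 0.0750% of microRNA counts in heat sperm, against 0.158, 0.130 and 0.0758% in control sperm. All 3 rows had negative log2 fold changes, in the whole-table fit and with microRNA rows alone, and none passed the test. The size depended on single control libraries. The log2 ratio of the family's share of all counts was -0.59, but -0.097 without control replicate 1 and -0.97 without control replicate 3. Without control replicate 1 the log2 fold changes were -0.53 for Mir100, -0.54 for Mir99a and -0.19 for Mir99b. Mir100 (chr9:41531425-41531504, plus strand, in Mir100hg) had 57.8, 50.02 and 40.0 microRNA CPM in heat sperm, against 104, 91.6 and 39.1 microRNA CPM in control sperm. Control replicate 3 was the lowest of all 6 libraries, so the groups overlapped. Its log2 fold change was -0.86 (SE 0.43, 95% interval -1.74 to 0.019, adjusted p = 0.476), with p = 0.0548 before adjustment, the smallest of any member. Mir100 had 44 to 62 counts in a heat library and 31 to 161 in a control library, and the 48 counts in heat replicate 3 gave a 95% Wilson interval of 30.2 to 53.0 microRNA CPM.

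Mir99a (chr16:77598936-77599000, plus strand) had 373, 348 and 398 microRNA CPM in heat sperm, against 656, 607 and 462 microRNA CPM in control sperm. Each heat library was below each control library, and the log2 fold change was -0.71 (SE 0.41, 95% interval -1.54 to 0.11, adjusted p = 0.495). Mir99b (chr17:17830188-17830257, plus strand, in the Spaca6 span) had 519, 414 and 313 microRNA CPM in heat sperm, against 821, 601 and 257 microRNA CPM in control sperm, with overlap because control replicate 3 was the lowest. Its log2 fold change was -0.64 (SE 0.43, 95% interval -1.52 to 0.23, adjusted p = 0.613). Within the family the 3 rows had overlapping shares, of which Mir99b had 54.6, 51.0 and 41.7% in heat sperm, against 51.9, 46.2 and 33.9% in control sperm.

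The miR-125 family, the mammalian relatives of the worm microRNA lin-4, took 0.156, 0.122 and 0.130% of microRNA counts in heat sperm, against 0.149, 0.198 and 0.154% in control sperm. Mir125a (chr17:17830812-17830879, plus strand) had 709.8, 496 and 496 microRNA CPM in heat sperm, against 587, 729 and 369 microRNA CPM in control sperm, with overlapping groups and a log2 fold change of -0.15 (SE 0.41, 95% interval -0.99 to 0.69, adjusted p = 0.979). The pair of hairpins for miR-125b lie on chromosomes 9 and 16. Mir125b-1 (chr9:41581926-41582002, plus strand, in Mir100hg) had 363, 291 and 333 microRNA CPM in heat sperm, against 391, 582 and 544 microRNA CPM in control sperm. Mir125b-2 (chr16:77646273-77646343, plus strand) had 489, 438 and 468 microRNA CPM in heat sperm, against 512, 667 and 622 microRNA CPM in control sperm. On this scale each heat library was below each control library in both rows, which give the same mature sequence and are not separate observations. The log2 fold change was -0.70 (SE 0.39, 95% interval -1.50 to 0.096, adjusted p = 0.483) for Mir125b-1 and -0.45 (SE 0.40, 95% interval -1.26 to 0.36, adjusted p = 0.782) for Mir125b-2. Of the miR-125 counts Mir125b-1 took 23.2, 23.8 and 25.7% in heat sperm, against 26.2, 29.4 and 35.4% in control sperm. Each heat library was below each control library on this share, against 1.49% of the other tested microRNAs set over the same sum.

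The miR-30 family took 6.45, 5.30 and 5.88% of microRNA counts in heat sperm, against 6.85, 6.41 and 6.30% in control sperm. The groups overlapped by heat replicate 1 alone, and the means were 5.87 ± 0.577% in heat and 6.52 ± 0.290% in control sperm (SD, n = 3 each). Its most abundant row, Mir30a (chr1:23272269-23272339, plus strand), had 26979.5, 23387 and 29601 microRNA CPM in heat sperm, against 29355, 29891 and 29781 microRNA CPM in control sperm. Heat replicate 3 lay among the control libraries and the other heat libraries were below them, with a log2 fold change of -0.22 (SE 0.47, 95% interval -1.18 to 0.75, adjusted p = 0.973). Mir30e (chr4:120772606-120772697, minus strand, in the Nfyc span) had 7374, 4863 and 5732 microRNA CPM in heat sperm, against 6943, 7274 and 7296 microRNA CPM in control sperm, with heat libraries on both sides of the control libraries and a log2 fold change of -0.37 (SE 0.45, 95% interval -1.29 to 0.54, adjusted p = 0.871). The row Mir30f has the same coordinates on the opposite strand, so without a stated use of strand its reads and those of Mir30e cannot be told apart. Mir30f had a log2 fold change of -0.20 (95% interval -1.13 to 0.73), and its seed UAAACAU is shifted from that of the other miR-30 forms.

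Mir30b and Mir30d lie within 3875 bases of each other on chromosome 15 (chr15:68337415-68337510 and chr15:68341208-68341289). Mir30b had 2259, 1962 and 2264 microRNA CPM in heat sperm, against 3729, 3023 and 2753 microRNA CPM in control sperm. Each heat library was below each control library, and the log2 fold change was -0.64 (SE 0.45, 95% interval -1.56 to 0.27, adjusted p = 0.646). Mir30d had 13852, 12032 and 10901 microRNA CPM in heat sperm, against 14148, 12802 and 12214 microRNA CPM in control sperm, with overlapping groups and a log2 fold change of -0.22 (95% interval -1.14 to 0.71). The ratio of Mir30b to Mir30d was 0.163, 0.163 and 0.208 in heat sperm, against 0.264, 0.236 and 0.225 in control sperm, without overlap. Of the miR-30 counts Mir30b took 3.50, 3.71 and 3.85% in heat sperm, against 5.44, 4.71 and 4.37% in control sperm. It was the single row of the 7 in which each heat library was below each control library on this share, against 2.61% of the other tested microRNAs set over the same sum. Mir30c-1 (chromosome 4) and Mir30c-2 (chromosome 1) give the same miR-30c sequence. Mir30c-1 had 5030.4, 3618 and 2683 microRNA CPM in heat sperm, against 4901, 3383 and 3202 microRNA CPM in control sperm. Mir30c-2 had 5420.3, 3727 and 2996 microRNA CPM in heat sperm, against 5036, 3697 and 3282 microRNA CPM in control sperm. Both rows had overlapping groups, with log2 fold changes of -0.22 (95% interval -1.12 to 0.69) for Mir30c-1 and -0.17 (95% interval -1.08 to 0.73) for Mir30c-2.

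**Figure D3:**
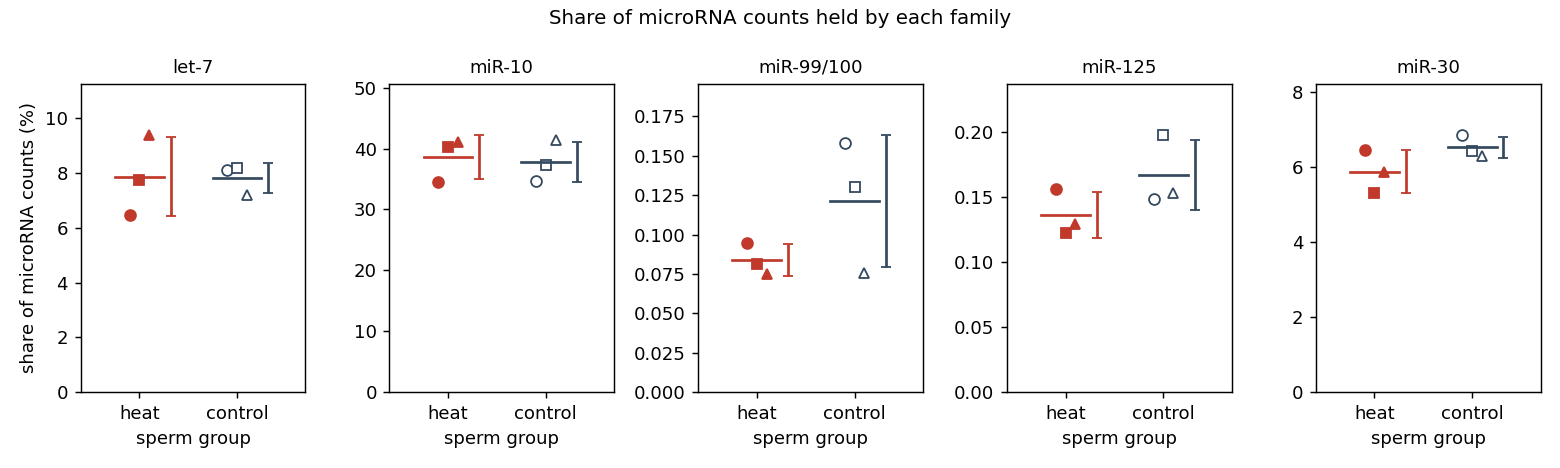
Share of microRNA counts held by each family (percent) in the 3 heat and 3 control sperm libraries, with the mean (line), the SD (bar beside it) and replicates 1, 2 and 3 as circle, square and triangle. The miR-10 family stands near 38% in both groups, let-7 near 8% and miR-30 near 6%, and heat and control libraries overlap in all 5 families.

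Rows that give the same mature sequence had nearly equal counts. Mirlet7a-1 held 49.8% to 50.1% of the sum of the let-7a rows in the 6 libraries, although their hairpins lie on chromosomes 13 and 9. For Mirlet7c-1 this share was 48.4% to 49.6%, for Mirlet7f-1 45.9% to 47.2% and for Mir30c-1 47.2% to 49.4%. Mir125b-1 held the most uneven share of its pair, at 39.9% to 46.7%. The sources used here do not say how reads that match several hairpins were counted, and a row stands for a hairpin gene, so its counts can hold reads of either arm. Family sums may therefore hold a read more than once, and rows cannot be ascribed to one hairpin.

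Members that share a genomic cluster did not all lie on the same side of 0. In the cluster of Mir99b, Mirlet7e and Mir125a on chromosome 17, which spans 692 bases, the log2 fold changes were -0.64, 0.26 and -0.15. The ratio of Mirlet7e to Mir99b was 0.603, 0.668 and 1.07 in heat sperm, against 0.291, 0.500 and 0.725 in control sperm, with overlapping groups. In the cluster of Mir99a, Mirlet7c-1 and Mir125b-2 on chromosome 16 they were -0.71, -0.36 and -0.45. Along Mir100hg on chromosome 9, Mir100, Mirlet7a-2 and Mir125b-1 had -0.86, -0.011 and -0.70. Mirlet7a-2, Mirlet7c-1, Mir125b-1 and Mir125b-2 each share a mature sequence with a row on another chromosome. Their values therefore cannot be ascribed to the named cluster. The difference between members of a cluster was not tested.

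**Figure D4:**
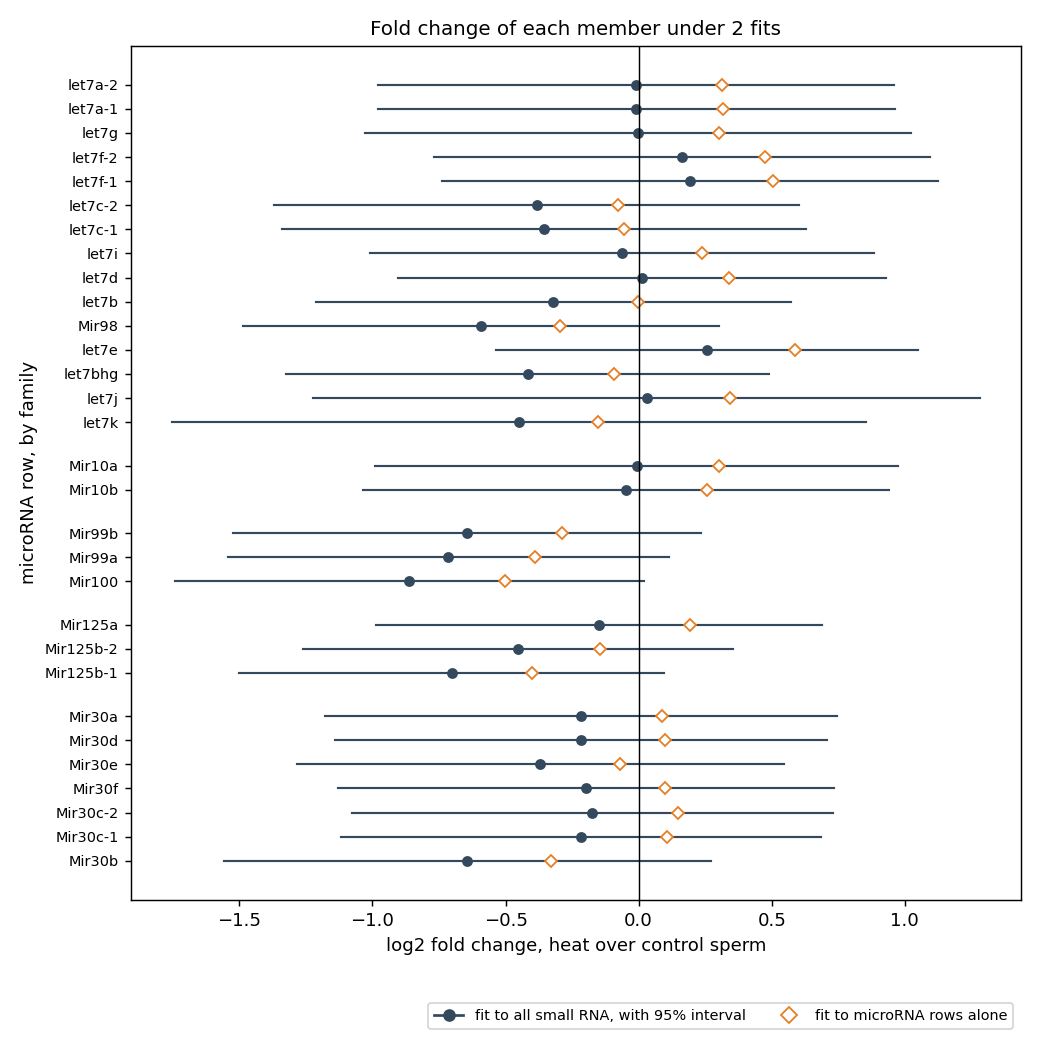
The log2 fold change of heat over control sperm for each member, from edgeR's fit to all 1407 tested small RNA features (circle, with its 95% interval) and from the fit to microRNA rows alone (diamond). All 30 intervals include 0, and every diamond lies to the right of its circle, with 13 diamonds and 25 circles below 0.

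MicroRNAs of other cells that a sperm sample can hold were also read, in TMM-scaled CPM, which is not comparable with microRNA CPM. On that scale Mirlet7a-2 had 1760, 2419 and 4150 in heat sperm, against 3174, 3141 and 2078 in control sperm. The 7 epithelial microRNAs (the miR-200 family, Mir203 and Mir205) summed to 2843 to 5851 TMM-scaled CPM in heat and 3847 to 5785 in control sperm. All 7 had negative log2 fold changes (median -0.45), against 71.9% of all tested microRNAs (median -0.27). Of the 7, 2 (Mir200b at -1.07 and Mir205 at -1.01) were lower at an unadjusted p under 0.05, against 17 of 566 tested microRNAs. None was called by edgeR. The 6 blood microRNAs summed to 217 to 352 TMM-scaled CPM in heat and 171 to 305 in control sperm. Of the 4 tested blood rows 2 were negative, with a median of 0.09. The red cell microRNAs Mir486, Mir451a and Mir144 had log2 fold changes of 0.89, 0.22 and -0.55, none past edgeR's test. Of the 4, 1 (Mir486) was higher at an unadjusted p under 0.05, against 7.53% of all features. The 6 muscle microRNAs summed to 1.79 to 6.62 TMM-scaled CPM in heat and 2.76 to 6.58 in control sperm, with Mir1a-2 and Mir206 at 0 in some libraries. The part of these cells in the values of the members was not tested.

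In the embryos, genes known as let-7 regulators or targets were read out of a test over all genes, with TPM values compared as log2(TPM + 1) by limma. At the 4-cell stage 17 of 24 listed genes passed the filter on low values, and limma called 0 of them, against 0% of 7322 genes. There 13 of the 17 were higher in heat embryos (median log2 fold change 0.46), against 74.1% of all genes (median 0.26). An unadjusted p under 0.05 was reached by 2 higher and 0 lower, against 9.98% of all genes higher and 1.52% lower. With detected genes as a covariate, 11 of the 17 were higher and the medians were 0.09 for the list and 0.10 for all genes. Igf2bp2, an RNA-binding protein gene repressed by let-7, had a median of 5.58 TPM in heat embryos and 3.07 TPM in control embryos (above 0 in 18 of 18 heat and 15 of 16 control embryos), with log2 fold change 0.81 (SE 0.27, limma, p = 0.00424, adjusted p = 0.379). Its relative Igf2bp1 had a median of 3.42 TPM in heat embryos and 1.75 TPM in control embryos (above 0 in 18 of 18 heat and 15 of 16 control embryos), with log2 fold change 0.72 (SE 0.33, limma, p = 0.0373, adjusted p = 0.405). With that covariate the log2 fold changes were 0.75 for Igf2bp2 (limma, p = 0.00876, adjusted p = 0.690) and 0.41 for Igf2bp1 (limma, p = 0.153). In morulae they were -0.032 for Igf2bp2 (limma, adjusted p = 0.982) and 0.47 for Igf2bp1 (limma, adjusted p = 0.809), without the covariate.

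In morulae 17 of the 24 genes were tested, and limma called 0 of them, against 0% of 7897 genes. Of these, 11 were higher in heat embryos (median log2 fold change 0.07), against 67.8% of all genes (median 0.13), with 1 higher and 1 lower at an unadjusted p under 0.05, against 4.13% and 1.92% of all genes. With detected genes as a covariate, 6 of the 17 were higher, and the medians were -0.10 for the list and -0.07 for all genes. Zcchc6, an enzyme that adds uridines to let-7 precursors, had a median of 1.09 TPM in heat embryos and 1.74 TPM in control embryos (above 0 in 21 of 21 heat and 22 of 22 control embryos), with log2 fold change -0.48 (SE 0.15, limma, p = 0.00234, adjusted p = 0.596). With that covariate the log2 fold change of Zcchc6 was -0.55 (limma, p = 0.000777, adjusted p = 0.400). Hmga1, a chromatin protein gene, had a median of 43.6 TPM in heat embryos and 17.7 TPM in control embryos (above 0 in 21 of 21 heat and 22 of 22 control embryos), with log2 fold change 0.97 (SE 0.39, limma, p = 0.0173, adjusted p = 0.771). With detected genes as a covariate its log2 fold change was 0.43 (limma, p = 0.14). At the 4-cell stage, without the covariate, the log2 fold changes were 0.16 for Zcchc6 (limma, adjusted p = 0.822) and 0.66 for Hmga1 (limma, adjusted p = 0.602). Lin28a, the inhibitor of let-7 maturation, had a median of 1.76 TPM in heat embryos and 1.10 TPM in control embryos (above 0 in 13 of 18 heat and 11 of 16 control embryos) at the 4-cell stage and a median of 2.48 TPM in heat embryos and 2.37 TPM in control embryos (above 0 in 21 of 21 heat and 20 of 22 control embryos) at the morula stage. Its log2 fold changes were 0.53 (limma, adjusted p = 0.581) and 0.21 (limma, adjusted p = 0.883). Trim71, a classic let-7 target, had a median of 1.72 TPM in heat embryos and 1.31 TPM in control embryos (above 0 in 17 of 18 heat and 15 of 16 control embryos) at the 4-cell stage, with a log2 fold change of 0.18 (limma, adjusted p = 0.807), and did not pass the filter in morulae. No label gives the parents of an embryo, so embryos of a group may have parents in common, and these p-values speak of embryos and not of fathers.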

How the data were processed

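Sperm small RNA was deposited by the authors as raw counts per feature and embryo RNA as TPM per gene. The submitters' processing notes name the build mm10 and the tools Bowtie2, RSEM and Trimmomatic (versions and roles not given in the sources used here). Heat was compared with control by edgeR 4.0.16 (quasi-likelihood, TMM scaling, default low-count filter) in R 4.3.3 on the 6 sperm libraries. The SE is the log2 fold change over the root of F. Embryo stages were fitted apart on log2(TPM + 1) by limma 3.58.1 with its mean-variance trend, for genes with TPM of at least 1 in at least 50% of 1 group. DESeq2 1.42.0, limma-voom, other scalings, filters and pseudocounts, a replicate block and left-out libraries were alternatives. The edgeR, DESeq2, limma-voom and 4-cell limma fits alone were also run on simulated data. The simulated sperm libraries shared the same composition apart from the features changed. They therefore do not speak of a library as unlike the others as heat replicate 3. Shares, ratios and overlaps were described without tests. Symbols were matched to RefSeq GRCm38.p6 for all 30 members, 3 of them (Mirlet7bhg, Mirlet7j and Mirlet7k) by synonym. Library values are given for the most abundant member and the 3 smallest p-values of each family, and for rows with a shared mature sequence; Mirlet7g and Mir30d were added after their values were seen. Embryo genes named are Lin28a, Trim71 and the 2 smallest p-values of a stage. The members, lists and pairs were chosen with earlier results of these data known.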

Additional observations from a re-analysis of the deposited data

How the results depend on the processing

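No member was called under any alternative. The members with a negative fold change numbered 13 of 30 with microRNA rows alone (median log2 fold change 0.099) and 24 of 26 with a stricter filter. With no low-count filter they numbered 19 of 30. With one library left out they numbered 16 to 30: 16 without heat replicate 1 and 30 without heat replicate 3 (median -0.51 to -0.021 over the 6 libraries). Members at an unadjusted p under 0.05 numbered 1 with RLE size factors (Mir100), 3 with a stricter filter (Mir125b-1, Mir99a and Mir98) and 0 to 6 with one library left out, 6 without heat replicate 3 and 3 without control replicate 3. Of all features, 92 of 1407 were at that level with RLE size factors and 96 of 888 with a stricter filter. Without heat replicate 3 it was 256 of 1551 features, and without control replicate 3 it was 45 of 1531. Features called numbered 3 with library totals alone, 6 with a stricter filter and 0 to 12 with one library left out, 12 without heat replicate 1 and 11 without heat replicate 3. Over microRNA and tRNA counts the log2 ratio of the family share was higher than over all counts in every family. It was 0.28 against -0.084 for miR-10, 0.25 against -0.12 for let-7 and 0.099 against -0.27 for miR-30. For miR-99/100 it was -0.22 against -0.59, and for miR-125 -0.036 against -0.40. The cause of these shifts was not tested.

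Some log2 fold changes turned sign. With microRNA rows alone these were Mirlet7a-2 0.31, Mirlet7a-1 0.32, Mirlet7g 0.30, Mirlet7i 0.24, Mir10a 0.30, Mir10b 0.26, Mir125a 0.19, Mir30a 0.087, Mir30d 0.099, Mir30f 0.099, Mir30c-2 0.15 and Mir30c-1 0.11. With no low-count filter they were Mirlet7a-2 0.059, Mirlet7a-1 0.062, Mirlet7g 0.070, Mirlet7i 0.0086, Mir10a 0.057 and Mir10b 0.019. With a stricter filter they were Mirlet7f-2 -0.019 and Mirlet7d -0.18. Mirlet7d was -0.016 with RLE size factors, -0.086 with library totals, -0.016 with DESeq2 and -0.023 with limma-voom. Lin28a in morulae was -0.20 adjusted for detected genes. With one library left out, the ranges of the members that turned were Mirlet7a-2 -0.41 to 0.25, Mirlet7a-1 -0.40 to 0.25, Mirlet7g -0.72 to 0.39, Mirlet7f-2 -0.20 to 0.38, Mirlet7f-1 -0.20 to 0.42, Mirlet7c-1 -1.02 to 0.0098, Mirlet7i -0.67 to 0.26, Mirlet7d -0.39 to 0.24, Mirlet7b -0.93 to 0.010, Mirlet7e -0.11 to 0.45, Mirlet7j -0.25 to 0.33, Mir10a -0.33 to 0.23, Mir10b -0.41 to 0.21, Mir125a -0.47 to 0.0097, Mir30f -0.68 to 0.036, Mir30c-2 -0.42 to 0.10 and Mir30c-1 -0.46 to 0.083.

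The labels tie no replicate number of the sperm libraries to an animal or day. Deviations of same-numbered libraries from their group mean correlated at -0.06, -0.42 and 0.09, and those of differently numbered libraries at -0.22 to 0.30. With 3 libraries a group these values cannot decide whether the numbers pair libraries. With the replicate block 26 members were negative (median -0.27), 0 features were called and Mirlet7d was -0.045. In embryos the block called 0 genes at either stage.

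Depth limits Mirlet7j and Mirlet7k, with under 30 counts in a library, and Mir100 in part. The spread between libraries, 3 a group and shared across features by edgeR, limits the abundant members, and TPM keeps no depth for embryos.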
